A study of Mus musculus with 2 samples.

Results

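The cells described here come from 1 pool of mouse hematopoietic cells of the bone marrow. They are the cells with the smallest share of cell cycle transcripts among the well-covered cells of each library. A barcode was kept when it held at least 1500 unique molecular identifiers (UMIs, the tags that count single captured transcripts) and when at most 20% of them were mitochondrial. For each kept cell the share of UMIs from 18 cell cycle genes was taken, and the lowest 10% of cells in each library, ties included, were chosen. They number 161 of 1599 kept cells, 20 from aliquot 1 and 141 from aliquot 2, out of 10809 barcodes in all. The other 1438 kept cells are the comparison, and the 18 genes were left out of every total and ratio.

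The pool came from lineage-depleted bone marrow and was run on the inDrops droplet platform. Rare cells sorted by live GFP signal alone (DAPI-GFP+) came from Mds1-GFP/+ Flt3-Cre mice. Mds1 is the upstream part of the Mecom locus, Flt3 marks multipotent progenitors, and the reporter cassette is flanked by loxP sites. These cells were mixed with long-term hematopoietic stem cells (LT-HSCs) of wild-type mice, sorted as DAPI-Lin-cKit+Sca+CD48-CD150+. Per the series design, the wild-type cells were added to secure library quality, and 46 cells were GFP LT-HSCs after the authors' processing. The sort and mouse line of a single cell are not recorded unless it carries a reporter transcript. The 2 libraries are aliquots of this 1 pool, so there is no biological replicate, the aliquots are technical, and no test between cell sets was possible. Intervals are at 95% and cover counting error only.

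Cells that divide switch on the genes of DNA replication in S phase and those of the mitotic spindle and chromosome segregation in G2 and M. Adult LT-HSCs are mostly out of cycle, and quiescence in them is tied to cell cycle inhibitors such as the CDK inhibitor Cdkn1c, to antiproliferative genes of the BTG family and to the thioredoxin-binding protein Txnip. A low level of cycle transcripts in a droplet library can also come from shallow coverage, so depth is given beside the results.

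The aliquots stood apart in the very measure that chose the cells. Kept cells of aliquot 1 had a median share of the 18 genes of 0.991%, against 0.221% in aliquot 2. The limit was therefore 0.321% in aliquot 1 and 0.0433% in aliquot 2, and 852 of the 1403 kept cells of aliquot 2 (60.7%) lay at or below the limit of aliquot 1. Only 2 cells of aliquot 1 lay at or below the limit of aliquot 2. Just inside and just outside the limit the share was 0.321% and 0.322% in aliquot 1, and 0.0433% and 0.0435% in aliquot 2, so no gap marks the boundary. In aliquot 2, 107 of the chosen cells held 0 UMIs of the 18 genes and 34 held 1, while 127 other cells also held 1. Among cells with 1 such UMI, the limit there was thus set by total UMIs, and the deeper cells were chosen. In total 461 barcode names occurred in both aliquots, among them those of 7 of the 161 cells and 1 name kept in both aliquots.

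**Figure D1:**
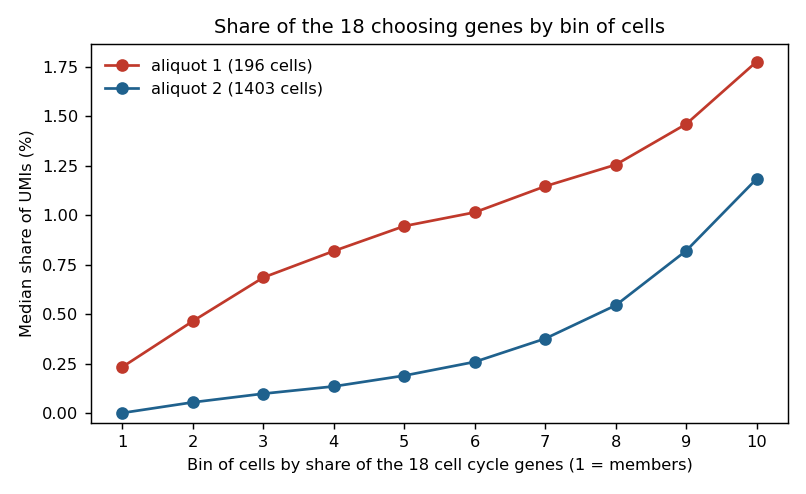
Median share of UMIs from the 18 choosing genes (%, y axis) in 10 bins of equal size of kept cells ranked by that share (x axis), for aliquot 1 (196 cells) and aliquot 2 (1403 cells). Bin 1 holds the chosen cells, at medians of 0.233% and 0, and aliquot 1 lies above aliquot 2 in every bin.

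In the chosen cells the 18 genes gave 102 UMIs, 0.0310% of all UMIs, against 0.532% in the other cells. Of the 161 cells, 109 held none of these transcripts, 35 held 1, and the most in a cell was 6. Mki67, the proliferation antigen, Cdk1, the kinase that drives entry into mitosis, its partners Ccnb1 and Ccnb2, and Birc5 (survivin) had 0 UMIs in the chosen cells. Mcm6, a subunit of the replicative helicase, had the most, 19 UMIs, followed by 13 each of Dut, which removes dUTP, and Hmgb2, a chromatin protein. These values made the choice and are given as a description.

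Part of so low a share is chance in counting, which a division of each cell's UMIs into 2 equal parts can show. When cells were chosen on 1 part, 263 cells were taken because of ties at 0. In the part that was not used to choose them, the 18 genes made up 0.110% of UMIs in those cells and 0.549% in the rest, a ratio of 0.20 (0.177 to 0.224). In the part that chose them the share was 0.0110%. The ratio in the unused part was 0.312 (0.234 to 0.406) in aliquot 1 and 0.191 (0.167 to 0.217) in aliquot 2. The cells chosen in this way were thus low in both parts of their UMIs, and less extreme in the part that did not choose them.

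The chosen cells were shallower, with a median of 1974 UMIs against 2242.5 in the other cells. They had a median of 1036 genes detected against 1172, and of 864 against 891 after every cell was thinned to 1500 UMIs. Mitochondrial UMIs made up a median of 5.01% against 4.69%. Summed over cells and without the 18 genes and the reporter, they held 329448 UMIs (33976 in aliquot 1 and 295472 in aliquot 2), against 3611515 in the other cells. Levels below are UMIs scaled to a total of 1000000 (CPM), and a ratio is the level in the chosen cells over that in the other cells.

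Of 3261 genes with at least 20 UMIs expected in the chosen cells at equal levels, 192 were at least 1.5-fold higher (5.89%) and 438 at least 1.5-fold lower (13.4%). Of 5918 genes with at least 10 expected UMIs, 2795 lay above 1 (47.2%) and 3123 below (52.8%), with a median log2 ratio of -0.04. These shares are the background for every list below. All genes of 1 contrast belong to the same cells that the 18 genes chose, so the ratios describe the cells and test nothing.

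Sequence upstream of the cell cycle genes is shown because most of the genes that chose the cells hold the letters CCAAT there, and some hold other short elements. The stretches are the 120 bases before the RefSeq start in GRCm38.p6, 5′ to 3′ on the gene's strand. Capitals mark CCAAT, the letters bound by the factor NF-Y, and the cell cycle genes homology region (CHR, searched as TTTGAA and TTCGAA), on either strand. Cdk1 is among the 18 genes, and its stretch lies at chr10:69352913-69353032 on the minus strand. Cdc20, an activator of the anaphase-promoting complex (stretch at chr4:118437344-118437463, minus strand), and Rrm2, the small subunit of ribonucleotide reductase (stretch at chr12:24708134-24708253, plus strand), are not. Txnip (stretch at chr3:96557837-96557956, plus strand) is shown for contrast as the most abundant of the 3 label markers.
Cdk1: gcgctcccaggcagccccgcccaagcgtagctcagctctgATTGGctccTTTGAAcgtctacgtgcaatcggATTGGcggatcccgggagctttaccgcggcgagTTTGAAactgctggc
Cdc20: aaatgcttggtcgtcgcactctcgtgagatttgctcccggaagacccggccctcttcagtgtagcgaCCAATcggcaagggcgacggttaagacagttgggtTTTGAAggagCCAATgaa
Rrm2: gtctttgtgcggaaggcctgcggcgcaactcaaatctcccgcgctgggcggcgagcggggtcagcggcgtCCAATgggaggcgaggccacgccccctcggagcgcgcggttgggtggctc
Txnip: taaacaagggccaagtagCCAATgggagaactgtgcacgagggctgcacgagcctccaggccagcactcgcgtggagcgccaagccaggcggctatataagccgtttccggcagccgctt

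Cdk1 held CCAAT letters 80 and 48 bases before the start and CHR letters 71 and 15 bases before it. Cdc20 held both kinds as well, Rrm2 held 1 CCAAT and Txnip 1 CCAAT. In the 250 bases before the start, CCAAT letters were found in 83.3% of the 18 windows of the choosing genes (17 of 18 genes matched) and in 33.8% of all 32817 windows. CHR letters were in 44.4% against 17.1%. The E2F letters TTTCCCGC and TTTGGCGC were in 16.7% against 1.3%, and the forkhead letters TGTTTAC in 0 against 3.16%. With 18 windows, that 0 cannot be told apart from 3.16%. All searches used both strands, and no 2 matches overlap in the stretches shown. For the cell cycle genes outside the 18, the same count is void, since only 47 of 61 had a window. A match describes the letters and is no evidence of binding.

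The label markers were uneven. Txnip was at 2043 CPM (1891 to 2203) in the chosen cells and 1278 (1242 to 1316) in the others, a ratio of 1.60 (1.47 to 1.73). In aliquot 1 it stood at 1825 CPM in the chosen cells and 638 in the others, and in aliquot 2 at 2068 and 1342, so the chosen cells were the higher set in both aliquots. After thinning, a chosen cell had a median of 3 Txnip UMIs (quartiles 1 and 5, highest 11) and another cell a median of 1 (quartiles 0 and 3, highest 16). The ranges overlapped almost wholly, and 24 of the 161 cells had none.

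Cdkn1c, which encodes the CDK inhibitor p57, had 31 UMIs in 14 of the 161 cells, 94.1 CPM against 41.0 and a ratio of 2.30 (1.51 to 3.40). Aliquot 1 gave a ratio of 2.42 on 2 UMIs (0.250 to 12.1) and aliquot 2 a ratio of 2.30 (1.49 to 3.45). Most chosen cells carried no Cdkn1c transcript at this depth, and 3 cells held 13 of the 31 UMIs. At 2500 UMIs or more per cell the ratio was 0.546, from 59 chosen cells. Btg2, an antiproliferative gene that is also an immediate early gene, was at 39.5 CPM against 50.4, a ratio of 0.783 (0.409 to 1.37) on 13 UMIs. It was at 1.49 (0.163 to 6.58) in aliquot 1 and 0.723 (0.354 to 1.33) in aliquot 2. At 2500 UMIs or more per cell it was at 1.56. Btg2 thus had no steady direction in the chosen cells, whereas its relative Btg1 was at 1.78 (1.36 to 2.29).

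On GRCm38 with the GENCODE vM21 annotation, Txnip lies on chromosome 3 from 96557957 to 96561883 on the plus strand. Cdkn1c lies on chromosome 7 from 143458339 to 143461050 and Btg2 on chromosome 1 from 134075170 to 134079120, both on the minus strand, and all 3 are protein-coding genes.

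Cell cycle genes that had no part in the choice were low together. Of 78 such genes, 61 reached 10 expected UMIs, of which 60 lay below 1 and 1 above, with a median log2 ratio of -1.74 against -0.04 over all genes. Of the 44 with 20 expected UMIs, 38 were at least 1.5-fold lower, beside 13.4% of all genes. The median was -2.17 in aliquot 1, over 32 genes, and -1.79 in aliquot 2.

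Among the S phase genes, 30 of 31 lay below 1 and 21 of 24 were at least 1.5-fold lower, with a median log2 ratio of -1.73. Rrm2 had 0 UMIs where 38.2 were expected, at least 13.9-fold lower by a floor of 3 counts over the chosen cells. Tk1, thymidine kinase of the salvage pathway, had 2 UMIs in the chosen cells and 697 in the others, a ratio of 0.0315 (0.00380 to 0.114). Rrm1, the large subunit of ribonucleotide reductase, was at 0.168 (0.0863 to 0.295). Uhrf1, which brings the methylation machinery to newly made DNA, was at 0.155 (0.0620 to 0.322), but at 0.717 (0.256 to 1.63) in aliquot 1 and 0.0268 (0.000678 to 0.15) in aliquot 2. The uracil glycosylase Ung was likewise at 0.635 (0.168 to 1.71) in aliquot 1, where the limit was higher. Dnmt1, the maintenance methyltransferase, was at 0.401 (0.274 to 0.567).

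All 30 measured genes of G2 and M lay below 1 and 17 of 20 were at least 1.5-fold lower, with a median log2 ratio of -1.90. Tuba1b, an alpha-tubulin of the spindle and the cytoskeleton, was the most abundant, at 543 CPM (467 to 629) against 1631 (1590 to 1673), a ratio of 0.333 (0.286 to 0.387). Stmn1 (stathmin), which destabilises microtubules, was at 0.390 (0.336 to 0.450), and Tubb5, a beta-tubulin, at 0.371 (0.312 to 0.438). The kinesin Kif11 was at 0.149 (0.0482 to 0.352), the spindle assembly factor Tpx2 at 0.15 (0.0547 to 0.329) and Cdca8 (borealin) at 0.0830 (0.0171 to 0.245) on 3 UMIs. Plk1, Bub1b, Nusap1 and Cdca3, all mitotic genes, had 0 UMIs. The genes nearest to 1 were Ctcf, a chromatin architecture factor, at 0.911 (0.586 to 1.36), and Pttg1 (securin) at 0.802 (0.358 to 1.57), of whose 9 UMIs 2 came from aliquot 1 (9.68, 0.702 to 134).

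Cyclins, their kinases and E2F genes were uneven. Of 22 genes, 14 were measured, 2 above and 12 below 1, with a median log2 ratio of -0.71. Cdk6, the G1 kinase whose level sets how fast an LT-HSC leaves quiescence, was at 209 CPM against 449, a ratio of 0.466 (0.361 to 0.593). In aliquot 1 it stood at 530 CPM in the chosen cells and 635 in the others, within counting error (0.834, 0.485 to 1.35), and in aliquot 2 at 173 and 431. Its paralog Cdk4 was at 0.805 (0.647 to 0.993). Ccnd2, the D-type cyclin that was most abundant here, was higher, at 895 CPM against 676 and a ratio of 1.32 (1.17 to 1.50), with 1.73 in aliquot 1 and 1.3 in aliquot 2. Ccna2, the cyclin of S and G2, had 1 UMI against 331 (0.0331, 0.000836 to 0.186), and E2f1 was at 0.250 (0.0805 to 0.593). After thinning, Ccnd2 was found in 57.8% of the chosen cells and 55.3% of the others. The chosen cells thus held little Ccna2, a lower level of Cdk6 that rests on aliquot 2, and a modestly higher level of Ccnd2.

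**Figure D2:**
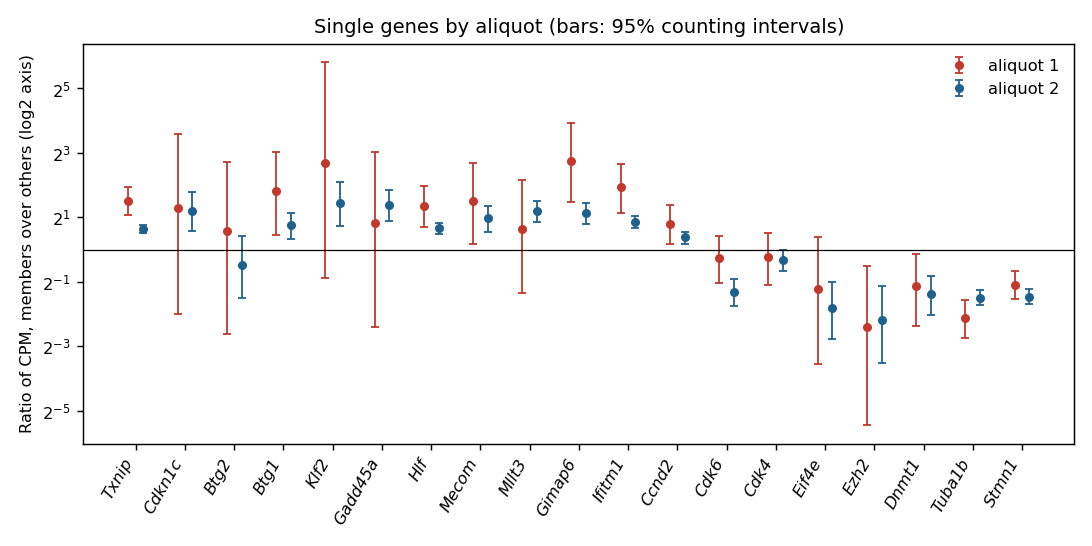
Ratio of CPM in the chosen cells over the other kept cells (y axis, log2 scale) for single genes (x axis) in aliquot 1 and aliquot 2. Bars are 95% counting intervals. Txnip, Hlf, Gimap6, Ifitm1 and Ccnd2 lie above 1 and Dnmt1, Tuba1b, Stmn1 and Ezh2 below 1 in both aliquots, while the interval of Cdk6 includes 1 in aliquot 1. Eif4e and Ezh2 were chosen after their values were seen.

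Genes tied to cell cycle exit were mostly higher. Of 27 genes, 21 were measured, 18 above and 3 below 1, with a median log2 ratio of 0.58, and 4 of 13 were at least 1.5-fold higher, beside 5.89% of all genes. The list holds the 3 label markers, and Txnip is 1 of those 4, so these counts are not separate from the marker values above. Gadd45a, a stress-induced growth arrest gene, was at 140 CPM against 55.1 (2.53, 1.80 to 3.51). Pik3ip1, an inhibitor of PI3-kinase signalling, was at 267 against 147 CPM (1.82, 1.44 to 2.29), and Klf2, a quiescence factor of lymphocytes, at 2.82 (1.76 to 4.38) on 26 UMIs. Cdkn1b (p27) was at 1.50 (1.03 to 2.12), while Cdkn2d (p19) was at 1.11 (0.749 to 1.59). The forkhead factor Foxo3, needed for LT-HSC maintenance, was at 1.41 (0.995 to 1.96), with 1 UMI in aliquot 1 (0.404, 0.00981 to 2.47). Below 1 were Btg2, Tob1 (0.548, 0.216 to 1.16) and Ccng2 (0.983, 0.662 to 1.41), each with an interval that includes 1.

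Genes of the LT-HSC list lay above 1 with 1 exception. Of 32 genes, 26 were measured, 25 above and 1 below, with a median log2 ratio of 0.50. At least 1.5-fold higher were 9 of 22, beside 5.89% of all genes. The exception was Tek, the angiopoietin receptor, at 0.761 (0.357 to 1.44) on 10 UMIs. The list's summed level was 9121 CPM against 6393, a ratio of 1.43 (1.37 to 1.48). Per cell, thinned to 1500 UMIs, the chosen cells had a median of 13 UMIs of the list (quartiles 9 and 17) and the others 9 (quartiles 6 and 13), so the ranges overlapped.

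The transcription factor Hlf, restricted to stem cells in bone marrow, was at 984 CPM (879 to 1097) against 605 (580 to 631), a ratio of 1.62 (1.44 to 1.83), and its aliquot ratios were 2.56 and 1.58. Mecom, the locus of the reporter and a factor for LT-HSC maintenance, was at 209 against 103 CPM (2.03, 1.55 to 2.63). Mllt3, which keeps up self-renewal, was at 304 against 137 CPM (2.22, 1.78 to 2.76). Both lay above 1 in each aliquot, Mecom at 2.87 and 1.96 and Mllt3 at 1.55 (0.392 to 4.49) and 2.28.

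Gimap6, a GTPase of the immunity-associated family, had the highest ratio of the list, 2.33 (1.88 to 2.87), with 6.66 in aliquot 1 and 2.19 in aliquot 2. Ifitm1, an interferon-induced membrane protein, was at 1041 against 561 CPM (1.85, 1.65 to 2.08). Procr (EPCR), a surface marker of LT-HSCs, was at 1.56 (1.19 to 2.01), and none of its 67 UMIs came from aliquot 1. Meis1 and Gata2, stem and progenitor transcription factors, were close to 1, at 1.08 (0.878 to 1.31) and 1.07 (0.896 to 1.28), but at 1.87 (1.06 to 3.13) and 1.67 (0.996 to 2.66) in aliquot 1. The list was therefore carried by some of its genes more than by others.

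Against this, the progenitor list had no common direction, with 3 of 7 measured genes above 1 and a median log2 ratio of -0.18. Cd34, low on LT-HSCs, was at 0.759 (0.583 to 0.973), with 1.1 in aliquot 1 and 0.725 in aliquot 2. Plac8, a gene of early progenitors, was at 0.880 (0.713 to 1.08) and Lsp1, a leukocyte actin-binding protein, at 1.77 (1.19 to 2.55). Kit, on which the wild-type cells were sorted, was at 634 against 656 CPM (0.968, 0.836 to 1.12), but at 1.58 (1.04 to 2.33) in aliquot 1 and 0.911 (0.777 to 1.06) in aliquot 2.

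How these genes run along the whole range of cells was read from 10 bins of cells per aliquot, ranked by the share of the 18 genes. In aliquot 2, Txnip stood at 2068, 2094, 2166, 1829, 1875 and 1842 CPM in bins 1 to 6, then at 1164, 874, 598 and 608 in bins 7 to 10. Its level in the chosen cells was therefore close to that of the next 5 bins. Ifitm1 went from 1086 CPM in bin 1 to 776 in bin 6 and 203 in bin 10, and Hlf from 1002 to 870 and 382. The cell cycle genes outside the 18 had the mirror form, since S phase genes summed to 971 CPM in bin 1, 1767 in bin 6 and 5576 in bin 10.

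Other genes had other courses, with neighbouring bins mostly within each other's counting intervals. Cdkn1c was at 98.2, 86.4 and 59.2 CPM in bins 1 to 3 of aliquot 2 and between 24.9 and 59.4 from bin 4 on. Gimap6 was at 328 CPM in bin 1, 245 in bin 2 and 87.2 in bin 10, and Mecom at 206, 169 and 41.4. Cdk6 was at 173, 245 and 162 CPM in bins 1 to 3 and reached 650 in bin 9. In aliquot 1, whose cells were higher in cycle transcripts throughout, Txnip was at 1825 CPM in bin 1, 1188 in bin 2 and 692 in bin 3, so there the drop began right after the chosen cells.

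**Figure D3:**
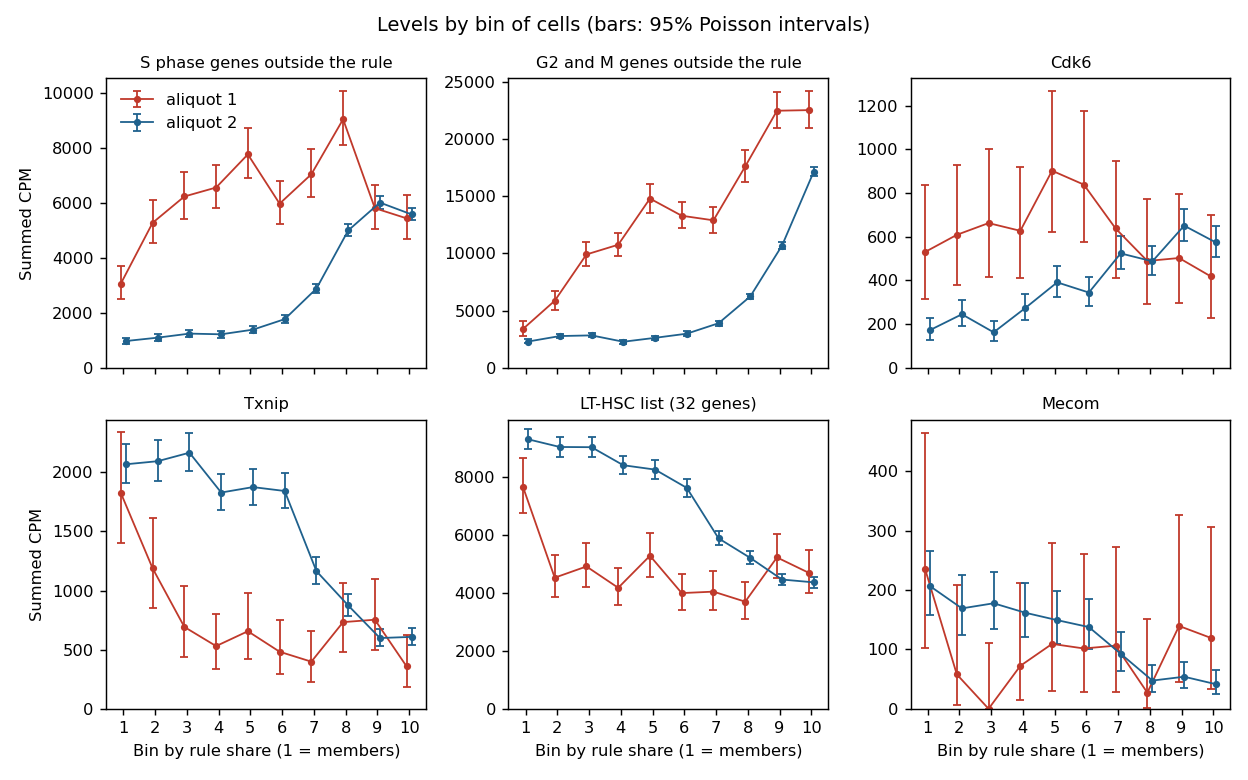
Summed CPM (y axes) of 3 gene lists and of Cdk6, Txnip and Mecom in 10 bins of kept cells ranked by the share of the 18 genes (x axes), per aliquot. Bars are 95% Poisson intervals of the counts. In aliquot 2 Txnip and the LT-HSC list stay near their level in bin 1 up to bin 6, while in aliquot 1 both are lower from bin 2 on.

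A narrower comparison set the 161 cells against the 639 other cells at or below the median share of the 18 genes. Fewer genes were past 1.5-fold, 140 of 3263 higher (4.29%) and 207 lower (6.34%). Txnip was then at 1.1 (1.01 to 1.20), Hlf at 1.16 (1.02 to 1.31) and Ifitm1 at 1.17 (1.04 to 1.32), and Procr at 0.979 (0.739 to 1.28). Gimap6 was at 1.61 (1.27 to 2.01), Mllt3 at 1.50 (1.18 to 1.89), Mecom at 1.36 (1.02 to 1.80), Cdkn1c at 2.10 (1.32 to 3.28), Gadd45a at 1.82 (1.26 to 2.59) and Btg1 at 1.59 (1.19 to 2.10). Cdk6 was at 0.668 (0.510 to 0.863), Cdk4 at 1.05 (0.828 to 1.32), Ccnd2 at 1.143 (1.001 to 1.301) and Tuba1b at 0.683 (0.580 to 0.800). Most of the Txnip, Hlf and Ifitm1 difference from all other cells was thus a difference from the upper part of the range, while Gimap6, Mllt3 and Gadd45a also differed from the cells nearest in rank.

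By list, the median log2 ratio against these nearer cells was -0.55 for the cell cycle genes outside the 18, 0.32 for the cell cycle exit genes and 0.18 for the LT-HSC genes, beside -0.02 over all genes. Of the 29 LT-HSC genes measured there, 18 lay above 1 and 11 below.

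**Figure D4:**
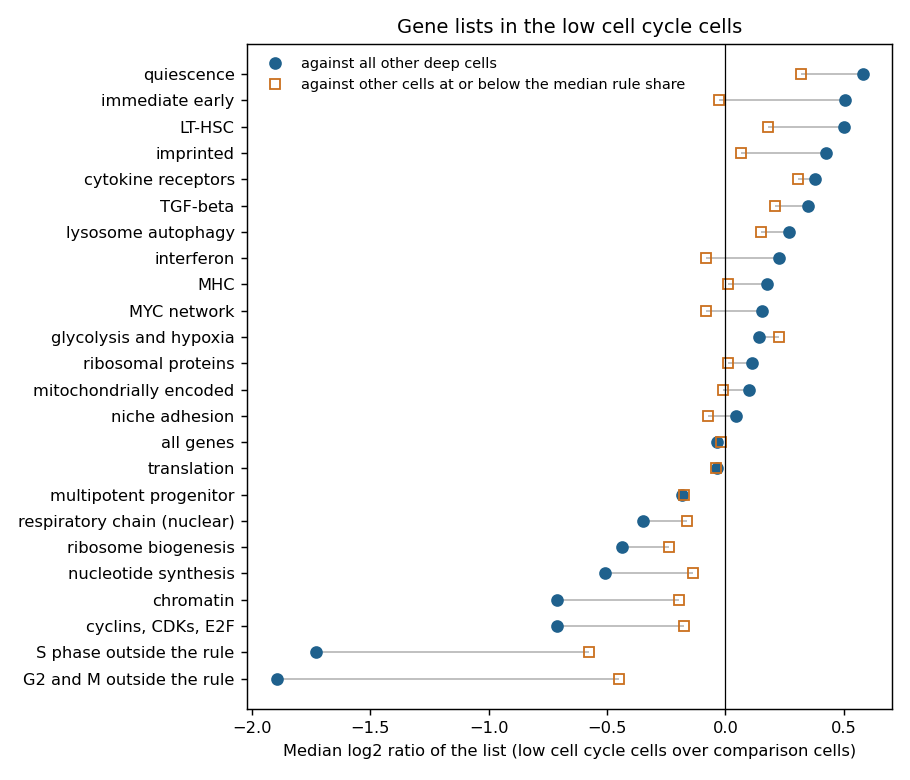
Median log2 ratio (x axis) of each gene list (y axis) in the chosen cells over all other kept cells (filled circles) and over the other cells at or below the median share of the 18 genes (open squares). The S phase and G2 and M lists are lowest in both comparisons, and the cell cycle exit and LT-HSC lists stay above 0 in both but nearer to it in the second.

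Genes of growth and biosynthesis were lower by less than the cycle genes. Chromatin genes had a median log2 ratio of -0.71, with 20 of 21 below 1 and 14 of 20 at least 1.5-fold lower. H2afz, a histone variant that is abundant in dividing cells and was chosen after its values were seen, was at 0.507 (0.426 to 0.599), and Ptma (prothymosin alpha), which loosens chromatin, at 2328 against 3693 CPM (0.630, 0.585 to 0.678). H2afz was at 0.993 (0.822 to 1.19) against the nearer cells. Genes of nucleotide synthesis had a median of -0.51 and all 22 measured lay below 1, among them Paics, an enzyme of purine synthesis, at 0.704 (0.585 to 0.842).

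Of the 26 measured ribosome biogenesis genes 23 lay below 1, with a median log2 ratio of -0.44. Npm1 (nucleophosmin) was at 0.793 (0.722 to 0.870) and Ncl (nucleolin) at 0.845 (0.733 to 0.970). The proteins of the ribosome itself went the other way by a small amount, with 32 of 40 above 1, a median of 0.11 and a summed level of 95994 CPM against 89298 (1.08, 1.06 to 1.09). Reads of these genes can be shared with pseudogene copies, so their values are uncertain. Translation factors were level, at a median of -0.04. Nuclear genes of the respiratory chain had a median of -0.35 with 30 of 35 below 1, and mitochondrially encoded transcripts a median of 0.10 with 8 of 11 above.

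Immediate early genes had 13 of 14 measured genes above 1, a median log2 ratio of 0.50 and 4 of 12 at least 1.5-fold higher. Klf2, Klf4, Klf6 and Btg2 belong both to this list and to that of cell cycle exit. Ier2 was at 571 against 364 CPM (1.57, 1.34 to 1.83), Zfp36, a destabiliser of AU-rich transcripts, at 1.60 (1.33 to 1.91) and Jun at 1.29 (1.14 to 1.46). Against the nearer cells the median was -0.03. These genes are also induced by cell handling, whose part was not tested. Lysosome and autophagy genes had a median of 0.27 with 15 of 20 above 1. Among them were Map1lc3b (LC3B), a protein of the autophagosome membrane, at 1.64 (1.35 to 1.99), and Psap (prosaposin) at 1.43 (1.22 to 1.66).

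Genes could be ranked when they had at least 30 expected UMIs, 5 or more of them in each aliquot, and a higher gene was passed over when 1 cell held over 20% of its UMIs in the chosen cells. This leaves out genes that are sparse in aliquot 1, such as Gimap6 and Mllt3. Among those with 1 direction in both aliquots (792 of the 1242 that could be ranked), the 15 highest ratios ran from 1.49 to 1.85. They were Ifitm1, Hibadh, Erg, Cebpb, Map1lc3b, Hlf, Ptk2b, Txnip, Ier2, Limd2, Def8, Ppp1r18, Pnrc1, Pura and Cpne1. Hibadh, an enzyme of valine breakdown, was at 252 against 141 CPM (1.79, 1.40 to 2.26). Erg, an ETS factor needed for stem cell maintenance, was at 310 against 186 CPM (1.66, 1.34 to 2.05), and Cebpb, a myeloid factor, at 1.66 (1.28 to 2.13). Against the nearer cells Hibadh was at 1.54 (1.18 to 1.99) and Erg at 1.42 (1.12 to 1.78). The 15 lowest held 8 cell cycle genes, among them Rrm2, Tk1 and the PCNA-binding factor 2810417H13Rik (0.0679, 0.0220 to 0.159), and 7 granule genes, S100a9, S100a8, Camp, Lcn2, Elane, Ngp and Prss34.

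These granule genes belong to neutrophil and basophil precursors and came from few cells. S100a9 had 0 UMIs in the chosen cells, where 259 were expected, and 3101 in 53 of the other cells. S100a8 had 4 UMIs against 2162 in 45 cells, and Ngp 8 against 1790 in 44 cells. No chosen cell was among the 29 kept cells with at least 20 UMIs of the granule genes. The low ratios of these genes thus rest on few barcodes of the other set. Not all neutrophil genes were low, since of 11 measured genes of that list 9 lay below 1 and 2 above. Prtn3 (proteinase 3), also of that list, had 100 UMIs in the chosen cells. It was at 1.14 (0.904 to 1.42) against the nearer cells. Without cells of at least 5 granulocyte UMIs, 177 genes were at least 1.5-fold higher and 401 lower, and Txnip was at 1.58.

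Lyz2 (lysozyme), a gene of macrophages and granulocytes, was higher, at 2.09 (1.87 to 2.35), with 0.367 in aliquot 1 and 2.47 in aliquot 2, and 256 of its 359 UMIs (71.3%) sat in 3 of the 161 cells, with 102, 96 and 58 UMIs. Those 3 cells held 15 UMIs of Ms4a6c, 13 of F13a1, 12 of Ccr2 and 4 of Ly6c2, genes of monocytes, and 0 of S100a8, S100a9, Ngp, Camp, Elane, Hlf, Mecom and Kit. They were found after their values were seen. Over the whole monocyte list 4 of 161 cells had at least 5 UMIs, against 16 of 1438. At least 20 UMIs of Lyz2 were held by these 3 of the 161 cells and by 19 of the 1438 other cells, so both sets had cells rich in Lyz2. In the 3 chosen ones these stem cell genes had no UMI, although each of the 161 cells held at least 1 UMI of the LT-HSC list.

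Markers of other lineages had no common direction over the 161 cells. Megakaryocyte genes at 5 or more UMIs were found in 2 of 161 cells (1.24%) against 76 of 1438 (5.29%), and of 5 measured genes 3 lay below 1 and 2 above. The integrin Itga2b (CD41) was at 0.446 (0.283 to 0.670) and Pf4, platelet factor 4, at 0.422 (0.259 to 0.651), with 1.00 in aliquot 1 and 0.341 in aliquot 2. The vesicle GTPase Rab27b was at 1.85 (1.19 to 2.77) and Vwf, von Willebrand factor, at 1.44 (0.918 to 2.17), so the list was split.

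Erythroid genes at 5 or more UMIs were found in 39 cells (24.2%) against 550 (38.2%). With every cell thinned to 1500 UMIs, both sets had a median of 2 UMIs of the list and an upper quartile of 4. The lower quartile was 0 in the chosen cells and 1 in the others, and the highest value 15 and 34. None of these UMIs was found in 43 of the 161 chosen cells and 304 of the 1438 others. Of the 510 erythroid UMIs of the chosen cells 456 were of the carbonic anhydrase Car2, at 0.905 (0.821 to 0.996). Gata1, the erythroid and megakaryocyte factor, had 7 UMIs, a ratio of 0.462 (0.183 to 0.974), while the globin Hbb-bt was at 2.10 (1.32 to 3.21) on 26 UMIs in 6 cells.

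Neutrophil genes, Lyz2 included, reached 5 UMIs in 11 of 161 cells (6.83%) against 74 of 1438 (5.15%). The summed B cell markers were at 2.27 (1.38 to 3.58) on 23 UMIs, with 1 cell at 5 or more, and the endothelial and stromal markers at 1.49 (1.1 to 1.98) on 55 UMIs. Of the latter, Emcn (endomucin), a sialomucin of endothelium that LT-HSCs also carry, was at 2.30 (1.50 to 3.43). T and NK cell markers reached 5 UMIs in 1 cell. No chosen cell had 5 UMIs of the endothelial or basophil markers, which allows a share of up to 1.86% by the limit of 3 counts and 2.27% by the Clopper-Pearson interval. Apart from the thinned erythroid counts these shares are not matched for depth, and the chosen cells were shallower.

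Reporter transcripts were found in 2 of the 161 cells, 1.24% (0.151 to 4.42%, exact Clopper-Pearson), and in 38 of the other 1438, 2.64% (1.88 to 3.61%). Both were in aliquot 2, where they were 2 of 141 cells (1.42%) against 35 of 1262 (2.77%). In aliquot 1 there were 0 of 20, which allows a share of up to 15% by the limit of 3 counts and 16.8% by the Clopper-Pearson interval. None of the 29 cells with at least 20 granule UMIs, at a median of 2561 UMIs, had a reporter UMI (0 of 29, which allows up to 10.3% by the limit of 3 counts and 11.9% by the Clopper-Pearson interval). The intervals of the chosen and other cells overlap, and the difference was not tested. These shares are not matched for depth. When the choice was made among cells of at least 2500 UMIs, the share was 6.78% of 59 chosen cells. The share in the other 523 cells of that depth is not given, so no direction can be read from this value. The direction of the difference is not settled here.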

How the data were processed

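The deposited files hold raw UMI counts for 28206 features per droplet barcode, whole numbers without normalization by the authors, as the values themselves show. Libraries were made with inDrops, per the labels' protocols. Tools listed in the submitters' processing notes are RSEM 1.3.0, Bowtie 1.1.1 and SAMtools 1.3.1, with the build GRCm38. Their roles and the division of reads among near-identical genes were not given in the sources used here. Reporter transcripts were counted against the cassette sequence, per the labels.

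From these counts, cells of at least 1500 UMIs and at most 20% mitochondrial UMIs were kept (9.13% of the barcodes of aliquot 1 and 16.2% of aliquot 2), with no removal of doublets, and the lowest 10% per aliquot by the 18 genes were taken. UMIs were summed over cells. CPM have exact Poisson intervals, ratios exact conditional binomial intervals and shares exact Clopper-Pearson intervals, all at 95%. The calculation was tested on simulated data. List genes needed 10 expected UMIs in the chosen cells, calls 20 and ranked genes 30 (and 5 in each aliquot).

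Named were the 3 label markers, measured genes of the cycle, exit and LT-HSC lists, the 15 highest and 15 lowest ranked genes (a higher gene with over 20% of its UMIs in 1 cell left out), up to 6 most abundant genes of other lists, and the 18 genes. A few genes that this rule names are not reported here. H2afz, Ezh2, Eif4e and Tgfb1, which this rule does not name, were chosen after their values were seen. The cells and all lists were chosen with earlier results of these data known. Positions are from GENCODE vM21 and promoters from RefSeq. Python 3.11.15, numpy 2.4.6, scipy 1.17.1 and matplotlib 3.10.9 were used.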

Additional observations from a re-analysis of the deposited data

How the results depend on the processing

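Each library held both cell sets, so ratios are also given within each aliquot, but both aliquots belong to 1 pool and are no biological replicates. Limits are set by depth: 1500 UMIs per cell detect few transcripts of a gene, and aliquot 1 gives 20 cells. Without aliquot 1 or aliquot 2 in turn, genes at least 1.5-fold higher numbered 10 to 196 and lower 29 to 416, Txnip ranged from 1.54 to 2.86, Btg2 from 0.723 to 1.49, the median log2 of the cell cycle genes outside the 18 from -2.17 to -1.87, that of the LT-HSC list from 0.47 to 0.82, and the reporter share from 0 to 1.42%. Ranbp1 ranged from 0.427 to 1.14 and Zfp36 from 0.941 to 1.66. Higher and lower calls were 470 and 779 at 1.3-fold, 17 and 160 at 2-fold, 984 and 1616 at 5 expected UMIs, 409 and 679 for the lowest 20% of cells, and 105 and 271 with cells thinned to 1500 UMIs. How many genes can be called depends on the UMI limit and on the summed UMIs of the chosen cells. Those were 33976 without aliquot 2, 641894 for the lowest 20% and 241416 after thinning, against 329448 in the main comparison. The counts therefore rest on unlike numbers of tested genes and do not measure the size of an effect. The lowest 5% of cells gave 124 higher genes and a cell cycle median of -1.95. Choice and level from separate UMIs gave a cell cycle median of -2.01, and Ccng1 0.920. Per-cell means gave Txnip 1.47. Cells of at least 2500 UMIs gave 126 higher genes, Txnip 2.08, Cdkn1c 0.546, Btg2 1.56, a cell cycle median of -2.08 and a reporter share of 6.78%, with Tob1 at 2.60, Lsp1 at 0.951 and Cd52 at 1.11. Against the other cells at or below the median share, 207 genes were lower, Txnip was at 1.1, the cell cycle median -0.55 and the LT-HSC median 0.18, and Gins2 (1.45), Lig1 (1.16), Cks2 (1.27), Smc2 (1.11), Procr (0.979), Ltb (0.995), Trpc6 (0.960) and Ndn (0.935) were on the other side of 1. Chosen after seeing the data were 1 limit over both aliquots (cell cycle median -1.96), cells with 0 UMIs of the 18 genes (121 higher genes, median -2.12), and leaving out shared barcode names. The last of these moved none of the main values past the limits given below. Why these values moved was not tested. A gene count was taken as moved when it changed by more than 1.5-fold. A label marker or the reporter share was moved when it left its main counting interval. A list median was moved when it shifted by more than the standard deviation between the 2 aliquots. By these limits, 10% mitochondrial UMIs, other totals, scaling by the median ratio and leaving out the 5% deepest cells moved none of the 8 or 9 main values.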

Other observations

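Further groups that belong to no main comparison were measured in the same cells. Imprinted genes had 6 of 8 measured genes above 1 and a median log2 ratio of 0.43, with Ndn (necdin), a growth suppressor of LT-HSCs, at 1.57 (1.04 to 2.30) and the abundant Gnas at 0.982 (0.873 to 1.1). Genes of TGF-beta signalling had 8 of 11 above 1, with the coreceptor Eng (endoglin) at 1.52 (1.21 to 1.89) and the ligand gene Tgfb1, chosen after its values were seen, at 0.516 (0.297 to 0.838). Cytokine receptors had 8 of 12 above 1, among them the TNF receptor Tnfrsf1a at 1.55 (1.18 to 2.01), while the chemokine receptor Cxcr4 was at 0.860 (0.632 to 1.15).

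Genes of the MYC network lay near 1, with a median log2 ratio of 0.15, Myc at 1.1 (0.879 to 1.37; 2.36 in aliquot 1 and 0.959 in aliquot 2) and Mycn at 1.27 (1.01 to 1.58). MHC genes had 11 of 14 above 1 with a median of 0.18, the class I gene H2-K1 at 1.12 (1.05 to 1.19) and its partner B2m at 1.14 (1.08 to 1.20). Adhesion genes were level, with a median of 0.04 and Cd47 at 1.01 (0.891 to 1.15). Interferon genes had 12 of 15 above 1 and a median of 0.23, and -0.08 against the nearer cells. Their median was -0.81 in aliquot 1, over 5 genes, and 0.29 in aliquot 2.

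Glycolysis genes were split, with 12 of 18 above 1. Ldha was at 0.794 (0.658 to 0.951; 1.28 in aliquot 1 and 0.721 in aliquot 2) and Tpi1 at 0.651 (0.493 to 0.845), while Aldoa was at 1.68 (1.32 to 2.12). Within translation, the cap-binding factor Eif4e, chosen after its values were seen, was at 0.306 (0.170 to 0.510) on 15 UMIs, with 0.427 in aliquot 1 and 0.284 in aliquot 2. Against the nearer cells it was at 0.357.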
